A study of Sus scrofa with 4 samples.

Results

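Proteoglycan core proteins were compared between LGR5-high and LGR5-negative epidermal cells of the pig. The 10 genes were taken by name from the table of read counts: 4 small leucine-rich proteoglycans (BGN, DCN, LUM and FMOD), versican (VCAN), the 4 syndecans (SDC1, SDC2, SDC3 and SDC4) and CSPG4. They are 10 of 29837 named genes, and all 10 were among the 15980 genes that passed the filter on low counts. Both populations came from juvenile pigs with the same genotype, in which H2B-GFP had been knocked into the first exon of a single LGR5 allele by CRISPR/Cas9, and no treatment is named for either. The animals of this model go back to clonal fibroblast lines used for nuclear transfer, and how pigs 88R and 95R were related is not given in the sources used here. Hair and epidermis were peeled from the dermis after dispase and dispersed with trypsin. Live cells were then sorted into a GFP-high population (LGR5-high) and a GFP-negative population (LGR5-negative), with 1 library of each from each of the 2 pigs. Because H2B-GFP is a stable nuclear protein that is diluted as cells divide, the gate follows recent as well as current LGR5 promoter activity. The GFP-dim cells are in neither population, and the LGR5-negative gate holds all other live cells of the suspension.

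A proteoglycan is a core protein to which long, negatively charged glycosaminoglycan chains are attached. The chains, chondroitin, dermatan, heparan or keratan sulfate, bind water, matrix proteins and growth factors, so a cell's set of core proteins and of chain-building enzymes shapes both its matrix and the signals it receives. Small leucine-rich proteoglycans are secreted and bind collagen fibrils, versican links hyaluronan to the pericellular matrix, and syndecans and CSPG4 are transmembrane proteins that act as co-receptors and adhesion receptors. In skin, decorin and lumican are best known from dermal fibroblasts, syndecan-1 is the main syndecan of epidermal keratinocytes, and versican marks the dermal papilla of the growing hair follicle.

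The 4 libraries held between 30696803 and 32463362 counts on named genes. A gene with 3 counts, used as the floor, lay between 0.0873 and 0.105 CPM (counts of a gene per 1000000 counts of the library, after TMM scaling) depending on the library. Counts from amplified reads are not independent molecules, so this floor and the counting intervals cover counting error only. Throughout, values of a population are given with pig 88R first and pig 95R after it. As a check of the sort, LGR5 counted 4551 and 6224 in LGR5-high against 36 and 109 in LGR5-negative. In bulk libraries, fewer cells of a type and less RNA per cell cannot be told apart. The labelled epidermal cell type was met by KRT5, the basal keratin, at 23664 to 25491 CPM in the LGR5-high and 26128 to 29558 CPM in the LGR5-negative cells. Between the populations, the suprabasal keratins KRT1 and KRT10 were lower in LGR5-high, with log2 fold changes of -3.56 and -3.44. KRT10 is among the genes the study named for their fall in these libraries, so its direction is not independent evidence.

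Of the 10 core proteins, 7 were higher in LGR5-high than in LGR5-negative and 3 lower, by edgeR's quasi-likelihood test at a Benjamini-Hochberg adjusted p below 0.05. The same test called 22.7% of all tested genes higher and 22.0% lower, so the background of called genes in this comparison was itself large. BGN, FMOD and SDC2 rose most, VCAN, SDC3, CSPG4 and SDC1 rose less, and DCN, LUM and SDC4 fell. LUM passed the low-count filter through its LGR5-negative libraries alone, which favoured a call in that direction. The median log2 fold change was 1.22 over the 10 genes and 0.02 over all tested genes. The libraries of the populations did not overlap in CPM for any of the 10, as was the case for 76.6% of all tested genes. When the fit held the pig as a block, the counts stayed at 7 higher and 3 lower, where 28.5% and 27.2% of all genes were called. By the per-gene test that the study's methods name, run here on log2(CPM + 1), 5 were higher (BGN, FMOD, SDC2, SDC3 and CSPG4) and none of the 3 lower genes was called, although LUM and SDC4 had an unadjusted p below 0.05. That test called 3.4% of all genes higher and 3.14% lower.

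**Figure D1:**
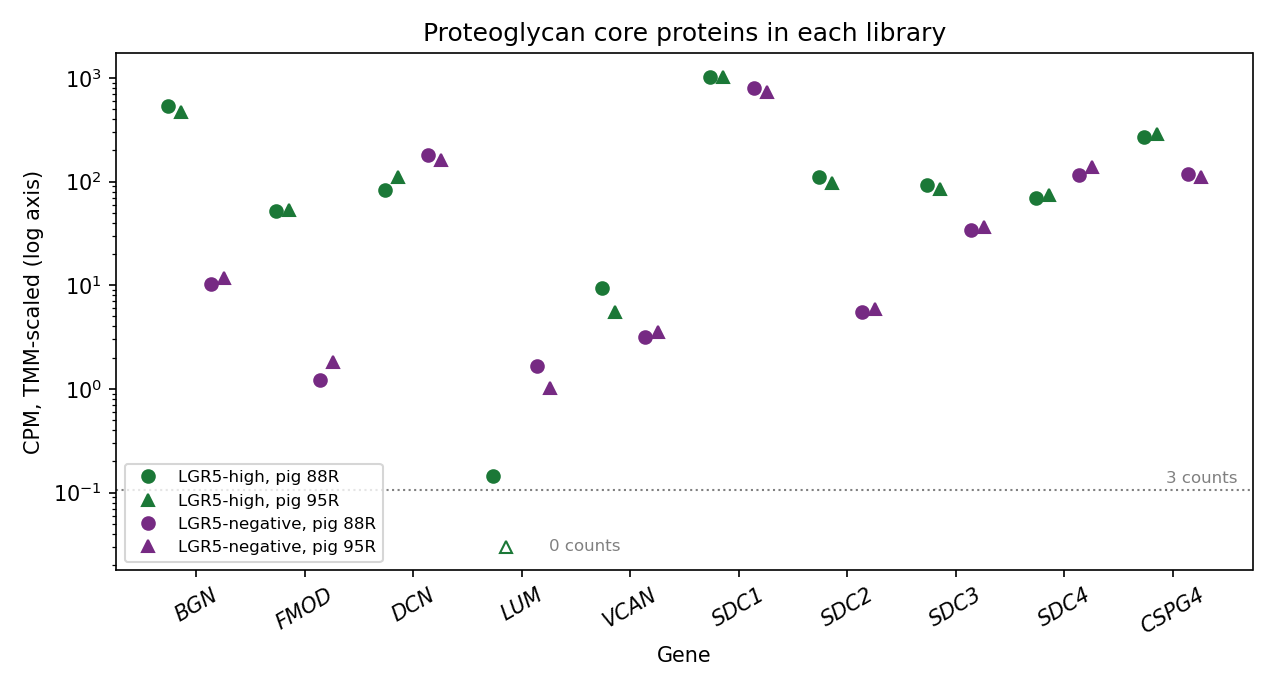
CPM (log10 axis) of the 10 proteoglycan core proteins in the 4 libraries, with 1 point per library and the pig marked by its symbol. The dotted line is the 3-count floor and the open point is a library with 0 counts. The LGR5-high and LGR5-negative points are apart for every gene. BGN is at 539 and 469 CPM against 10.3 and 11.7 CPM, and LUM, near the 3-count floor in LGR5-high, is at 0.145 and 0 CPM against 1.65 and 1.03 CPM.

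BGN encodes biglycan, a collagen-binding core protein that carries chondroitin or dermatan sulfate chains. BGN was at 539 and 469 CPM in LGR5-high, against 10.3 and 11.7 CPM in LGR5-negative. Both LGR5-high libraries lay far above both LGR5-negative libraries, and the pigs of a population differed little beside that distance. The means were 504 ± 49.3 CPM (SD, n = 2) and 11 ± 0.988 CPM (SD, n = 2), a log2 fold change of 5.52 (SE 0.13, edgeR adjusted p = 3.80e-05), or 45.7-fold. Within the pigs the log2 fold change was 5.70 and 5.32. This change was larger than that of 99.1% of all tested genes. BGN is also among the genes the study displayed because of their change in these libraries, so its direction here is not independent evidence.

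FMOD encodes fibromodulin, a keratan sulfate-bearing member of the same family that binds fibrillar collagen. FMOD measured 52.4 and 53.4 CPM in LGR5-high, against 1.23 and 1.82 CPM in LGR5-negative. The LGR5-high libraries were almost equal, and the 35 and 55 counts behind the LGR5-negative values were well above the floor. The log2 fold change was 5.11 (SE 0.193, edgeR adjusted p = 6.28e-05), a 34.5-fold rise.

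DCN encodes decorin, the closest relative of biglycan and a regulator of collagen fibril growth. DCN was at 83.4 and 112 CPM in LGR5-high and at 182 and 163 CPM in LGR5-negative. Both LGR5-high libraries were lower, although DCN was still measured with 2868 and 3690 counts there. The log2 fold change was -0.82 (SE 0.151, 95% interval -1.20 to -0.45, edgeR adjusted p = 0.0078), 1.77-fold lower. The difference was larger in pig 88R, at -1.12, than in pig 95R, at -0.54.

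LUM encodes lumican, a keratan sulfate proteoglycan of collagen-rich tissue, and lies next to DCN in the RefSeq annotation of Sscrofa11.1, with no gene between them. It was close to the limit of detection, with 5 and 0 counts in LGR5-high against 47 and 31 in LGR5-negative. All LGR5-negative values were above the floor and the LGR5-high library of pig 95R held no count. Being tested thus already required a high level of LUM in the LGR5-negative libraries. Pooled over the libraries of each population, LUM was 17.9-fold lower in LGR5-high with a 95% counting interval of 7.36 to 56.7, and edgeR gave a log2 fold change of -4.10 (SE 0.878, adjusted p = 0.0123). The neighbouring genes DCN and LUM thus both fell, from very different counts, by 1.77-fold and 17.2-fold in the edgeR fit.

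The small leucine-rich members together rose. Their summed level was 675 and 634 CPM in LGR5-high and 195 and 177 CPM in LGR5-negative, means of 655 ± 28.7 and 186 ± 12.4 CPM, a 3.51-fold difference. An exact two-sided permutation test gave p = 0.333, the smallest value that 2 libraries against 2 allow, so this test cannot reach 0.05 here. The make-up of the sum turned over between the populations. BGN took 79.9% and 74.0% of the counts of the 4 genes in LGR5-high and 5.29% and 6.6% in LGR5-negative, while DCN took 12.4% and 17.6% against 93.2% and 91.8%. For each DCN count there were 6.46 and 4.2 BGN counts in LGR5-high and 0.0567 and 0.0719 in LGR5-negative. FMOD took 8.09% ± 0.467 of these counts in LGR5-high and 0.828% ± 0.28 in LGR5-negative, and LUM stayed below 1% in every library. These are shares of counts, not of molecules, because transcript lengths were not available; only the change of a gene's share between populations can be read from them.

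**Figure D2:**
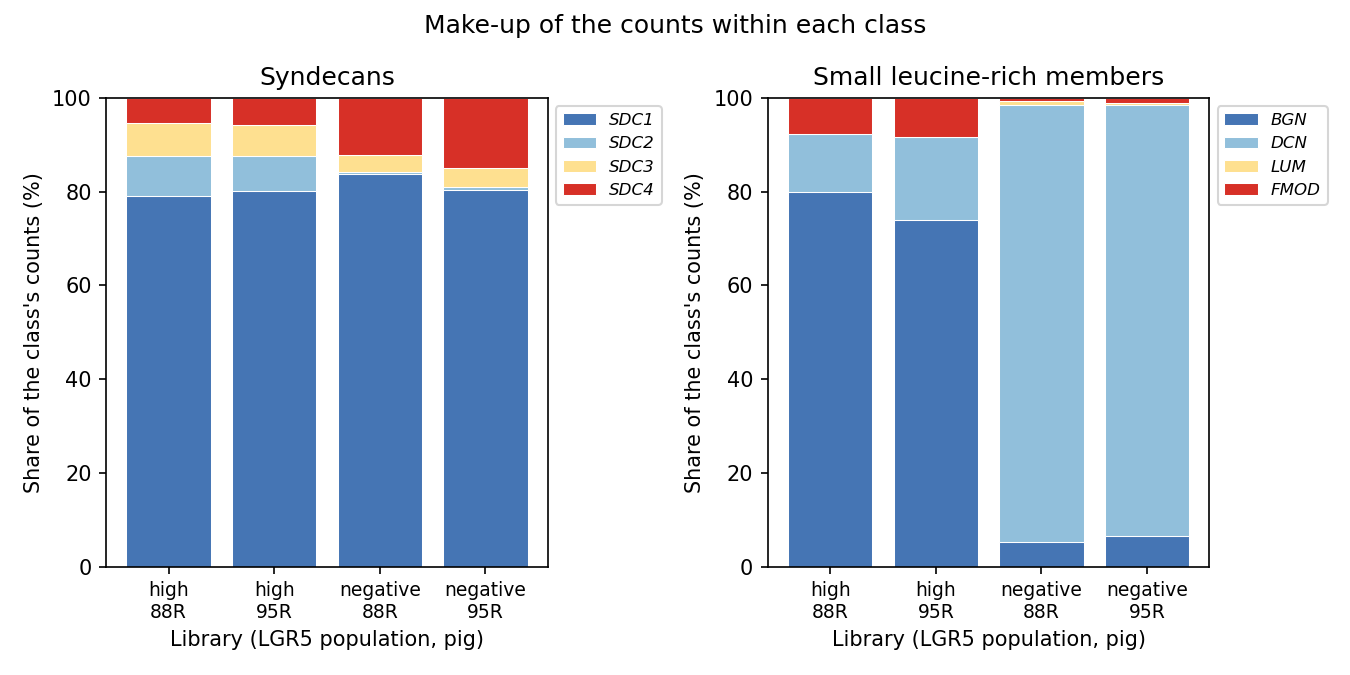
Share of the counts of the 4 small leucine-rich proteoglycans and of the 4 syndecans taken by each gene, in percent from 0 to 100, with 1 bar per library. Among the small leucine-rich genes BGN fills 79.9% and 74.0% in LGR5-high and DCN 93.2% and 91.8% in LGR5-negative, while SDC1 fills 79.0% to 83.7% of the syndecan counts in all 4 libraries.

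VCAN encodes versican, a large chondroitin sulfate proteoglycan that binds hyaluronan. It was at 9.37 and 5.48 CPM in LGR5-high and at 3.16 and 3.57 CPM in LGR5-negative. Both LGR5-high libraries were higher, but the pigs differed more for VCAN than for the other members that rose, with within-pig log2 fold changes of 1.55 in 88R and 0.61 in 95R. The log2 fold change was 1.14 (SE 0.304, 95% interval 0.39 to 1.89, edgeR adjusted p = 0.0271). The call was lost when either library of pig 88R was left out. Without the LGR5-high library of that pig the log2 fold change was 0.69 (edgeR adjusted p = 0.148), and without its LGR5-negative library it was 1.05 (edgeR adjusted p = 0.0713).

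Syndecans carry heparan sulfate chains on a single-pass transmembrane core and bind growth factors and matrix ligands. SDC1 is the epithelial syndecan, and it took most of the syndecan counts in every library. SDC1 was at 1031 and 1033 CPM in LGR5-high and at 796 and 732 CPM in LGR5-negative. The populations did not overlap, yet the rise was small: a log2 fold change of 0.43 (SE 0.0856, edgeR adjusted p = 0.0099), or 1.35-fold. It missed the threshold without the LGR5-high library of pig 88R (edgeR adjusted p = 0.0611) and without that of pig 95R (edgeR adjusted p = 0.0603), while the log2 fold change remained 0.43 and 0.44.

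SDC2, best known as a syndecan of mesenchymal cells, changed most within the family. It was at 112 and 96.1 CPM in LGR5-high and at 5.47 and 5.96 CPM in LGR5-negative. The log2 fold change was 4.19 (SE 0.129, edgeR adjusted p = 4.46e-05), an 18.2-fold rise. The pigs gave log2 fold changes of 4.34 and 4.00. This change exceeded that of 97.8% of all tested genes.

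SDC3, the neural syndecan, was at 93.1 and 85.5 CPM in LGR5-high and 34.2 and 36.1 CPM in LGR5-negative. The LGR5-high libraries were the higher ones in both pigs, with a log2 fold change of 1.34 (SE 0.0919, edgeR adjusted p = 2.51e-04). SDC4, a widely expressed syndecan of focal adhesions, went the other way, with 69.1 and 73.9 CPM in LGR5-high and 115 and 137 CPM in LGR5-negative. Its log2 fold change was -0.82 (SE 0.108, 95% interval -1.09 to -0.55, edgeR adjusted p = 0.00228), 1.77-fold lower, and both pigs showed it, at -0.74 and -0.89.

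The summed level of the syndecans was 1305 and 1288 CPM in LGR5-high and 951 and 911 CPM in LGR5-negative, a 1.39-fold difference of the means, 1297 ± 12 and 931 ± 28.2 CPM (exact two-sided permutation p = 0.333, the smallest possible). SDC1 held 79.0% and 80.2% of the syndecan counts in LGR5-high and 83.7% and 80.4% in LGR5-negative, ranges that nearly met. The remainder shifted more. SDC2 went from 0.615% ± 0.0552 of the counts in LGR5-negative to 8.02% ± 0.802 in LGR5-high, SDC3 from 3.78% ± 0.258 to 6.89% ± 0.351, and SDC4 from 13.6% ± 2.04 to 5.51% ± 0.311. For each SDC4 count there were 1.62 and 1.3 SDC2 counts in LGR5-high and 0.0474 and 0.0435 in LGR5-negative.

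CSPG4, also called NG2, is a transmembrane chondroitin sulfate proteoglycan known from pericytes, glial progenitors and basal keratinocytes. It was at 272 and 287 CPM in LGR5-high and at 118 and 110.0 CPM in LGR5-negative. The LGR5-high libraries were both higher and close to each other, and the log2 fold change was 1.29 (SE 0.0832, edgeR adjusted p = 2.10e-04), or 2.45-fold. Of 7 pericyte and smooth muscle markers read beside it, 4 were tested: ACTA2, RGS5 and MYH11 were higher and NOTCH3 was lower. Their summed level was 381 and 394 CPM in LGR5-high and 555 and 652 CPM in LGR5-negative, most of it NOTCH3, at 369 and 383 against 551 and 646 CPM. ACTA2, with a log2 fold change of 2.08, kept its call whichever library was left out. MYH11 lost its call without LGR5-high 88R, LGR5-negative 88R or LGR5-high 95R, and RGS5 without LGR5-high 88R or LGR5-negative 95R. The untested markers KCNJ8 and ABCC9 had at most 7 counts in any library. The part of these cells in the change of CSPG4 was not tested.

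**Figure D3:**
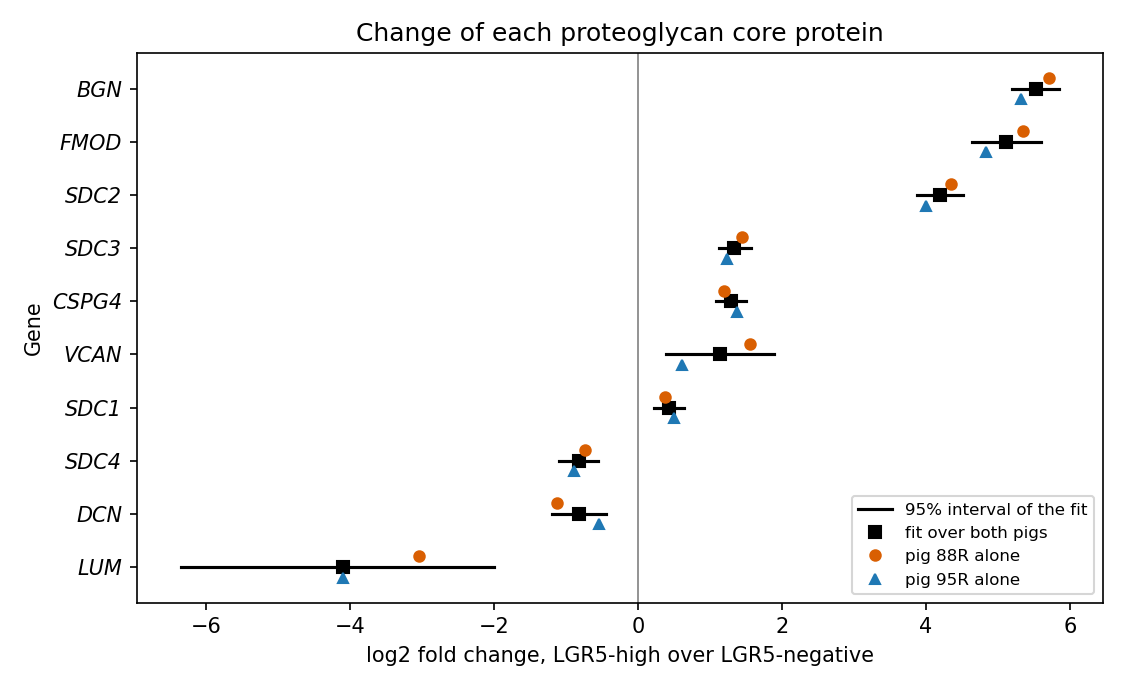
Fitted log2 fold change (LGR5-high over LGR5-negative) of each core protein with its 95% interval, beside the log2 fold change within pig 88R and within pig 95R. In both pigs BGN, FMOD, SDC2, SDC3, CSPG4, VCAN and SDC1 lie above 0 and SDC4, DCN and LUM below it; VCAN is at 1.55 and 0.61 in the pigs and LUM has the widest interval, -6.35 to -2.00.

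Several members are also known from cells other than keratinocytes, so marker lists of these cells were read beside them. Of 11 fibroblast markers, 6 were higher in LGR5-high (COL1A1, COL1A2, COL5A1, THY1, FBLN1 and FBN1) and 4 were lower (COL3A1, PDGFRA, MFAP5 and COL6A3), and their summed level was 1311 and 1582 CPM in LGR5-high against 576 and 303 CPM in LGR5-negative. PDGFRB was not called. Among the higher markers COL1A2 was at 497 and 561 CPM in LGR5-high against 57.7 and 24 CPM, and THY1 at 504 and 466 CPM against 267 and 117 CPM. Among the lower ones PDGFRA had 4 and 3 counts in LGR5-high and 21 in each LGR5-negative library, and COL6A3 had 5 and 12 counts against 207 and 180. BGN, FMOD and SDC2 had the direction of the 6 higher markers, and DCN and LUM that of the 4 lower ones. In a single contrast between populations any genes called the same way share a direction. Whether members and markers varied together was not tested. COL1A1 differed between the pigs, with log2 fold changes of 0.60 and 3.15, and lost its call when either library of pig 95R was left out. THY1, PDGFRA and MFAP5 lost theirs when either LGR5-high library was left out. Of 6 dermal papilla markers 3 were tested: WIF1 was higher, and CORIN and ALPL were not called. The list summed to 10.1 and 11.6 CPM against 3.37 and 3.18 CPM, of which WIF1 made up 5.64 and 8.05 CPM in LGR5-high. Among the untested markers SOX2 had 3 and 5 counts in LGR5-high and 0 in LGR5-negative. CRABP1 had 7 and 9 counts against 5 and 3, and RSPO3 went the other way, with 1 and 1 against 6 and 13. Of 6 Schwann cell markers 4 were tested: NGFR and S100B were higher and SOX10 was lower, with sums of 58.9 and 78.9 CPM against 5.44 and 10.8 CPM, of which NGFR made up 51.1 and 65.1 CPM in LGR5-high. SOX10 lost its call without LGR5-high 88R and S100B without LGR5-high 95R. The part of these cells in the changes of the core proteins was not tested.

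The lists of other lineages were lower or mixed in LGR5-high. The melanocyte list had 4 of 7 genes lower (63.9 and 63.5 CPM summed against 84.4 and 258), and the endothelial list had 5 of 6 lower (6.28 and 7.6 CPM against 21.4 and 21.5). Of 6 immune markers 4 were tested, with AIF1 higher and PTPRC, CD207 and CD79A lower, and sums of 9.34 and 10.6 CPM against 11 and 14.8. Of 5 hair follicle stem cell markers 4 were higher and KRT15, at 0.64 and 0.83 within the pigs, was not called (edgeR adjusted p = 0.187, and 2.13e-06 with the pig as a block). Of 4 keratinocyte markers EPCAM alone was called higher, and of 5 markers of differentiated epidermis 4 were lower. When at least 1 library was left out, TYR, MLANA, PMEL, KDR, TEK, CLDN5, CD79A and EPCAM lost their calls, and with the pig as a block PECAM1, DCT and MITF gained one. LGR5, SOX9, LHX2 and TBX1 in the follicle list were, like BGN, displayed by the study for their change.

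Beyond the 10 members, 41 other core and link proteins were in the table and 28 were tested, of which 14 were higher, 9 were lower and 5 were not called. Over all tested genes 22.7% were higher and 22.0% lower, which is the background for this count and for every list below. Some of the higher genes, ACAN and GPC5 among them, passed the low-count filter through the LGR5-high libraries alone. Among the other small leucine-rich proteins, 6 of 13 were tested, with 3 higher and 1 lower. PRELP, which anchors basement membranes to collagen, was at 17.5 and 19.3 CPM in LGR5-high and 0.597 and 1.13 CPM in LGR5-negative, a log2 fold change of 4.40. PODN and PODNL1, the podocans, rose with log2 fold changes of 3.78 and 2.17. OGN (osteoglycin, or mimecan) fell, from 1.79 and 1.49 CPM to 0.524 and 0.636 CPM, a log2 fold change of -1.49. With the pig as a block 4 of the list were higher and 2 were lower. KERA, the keratocan gene next to LUM, was not among the tested genes. The median of the 6 was 1.23. The low-count filter was rerun when 1 library was left out, so the tested genes of the list were not held to these 6. The list median then ranged from -0.01 to 0.51, reaching -0.01 without the LGR5-high library of pig 95R, and is not a measure of how stable the 6 are.

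Among the hyaluronan-binding relatives of versican ACAN alone was tested, and the other tested genes of this list were link proteins. ACAN (aggrecan) had 85 and 76 counts in LGR5-high and 1 and 3 counts in LGR5-negative, a ratio of 35.1 with a 95% counting interval of 13.4 to 130.0. The link proteins HAPLN1, which stabilises the binding of aggrecan and versican to hyaluronan, and HAPLN3 had log2 fold changes of 3.53 and 2.82. HAPLN1 was nonetheless low, at 0.873 and 1.57 CPM in LGR5-high. Together 4 of 4 tested genes of this list of 7 were called higher, among them HAPLN4, with a median of 3.17. HAPLN4 lost its call when either LGR5-high library was left out. ACAN and HAPLN1 passed the low-count filter through their LGR5-high libraries alone, so being tested already required a high level there. The count and the median are tilted upward by this.

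Glypicans carry heparan sulfate like syndecans but are held to the membrane by a lipid anchor. Of 6 glypicans 4 were higher, GPC3 was lower and GPC1 was not called. GPC6 was at 14.7 and 15.4 CPM in LGR5-high and 0.912 and 1.39 CPM in LGR5-negative, and GPC2 was at 37.2 and 29.9 CPM against 4 and 4.17 CPM, log2 fold changes of 3.70 and 3.04. GPC5 had 35 and 13 counts in LGR5-high and 0 in both LGR5-negative libraries, at least 6.9-fold higher against the floor of 3 counts per library. GPC3, which binds hedgehog proteins, went from 55.8 and 37.4 CPM in LGR5-negative to 19.4 and 24.9 CPM in LGR5-high, a log2 fold change of -1.07 (edgeR adjusted p = 0.0119).

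The basement membrane proteoglycans changed little by comparison. HSPG2 (perlecan) was at 304 and 277 CPM in LGR5-high and 192 and 203 CPM in LGR5-negative, a log2 fold change of 0.56 (SE 0.0864, edgeR adjusted p = 0.00423). AGRN (agrin) had a log2 fold change of 0.23 (edgeR adjusted p = 0.0942, and 0.0346 with the pig as a block). COL18A1, the collagen XVIII core from which endostatin is cut, was lower, at 612 and 776 CPM against 1174 and 1114 CPM, a log2 fold change of -0.72. The remaining and part-time proteoglycans leaned the other way, with 6 of 9 tested lower, 2 higher and a median of -1.27. SRGN (serglycin), the granule proteoglycan of blood cells, fell with a log2 fold change of -2.87, and TGFBR3 (betaglycan), a TGF-beta co-receptor, fell from 68.1 and 86.5 CPM to 10.7 and 13.3 CPM, or -2.68. NRP1, a semaphorin and VEGF co-receptor that can carry a chain, rose with a log2 fold change of 2.98, and SPOCK2 (testican-2) with 1.02. For SRGN, PTPRC, a pan-leukocyte marker, moved the same way, at 0.204 and 0.121 CPM against 1.93 and 2.85 CPM, and its part was not tested.

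The enzymes that build the chains were read from lists by chain type. All chondroitin, dermatan and heparan sulfate chains start on a common linker, and the 7 linker genes showed little change: 2 were lower, FAM20B (-0.54), the linker xylose kinase, and B3GALT6 (-0.41, edgeR adjusted p = 0.046), 5 were not called, and the median was 0.07. With the pig as a block 1 further linker gene was called higher. Of the 8 genes that make or carry sulfate and sugar donors, 5 were lower and PAPSS2 was higher, and without LGR5-high 88R or LGR5-high 95R 3 and 2 were lower. SLC35D1, a transporter of nucleotide sugars needed for chondroitin synthesis, fell from 52.3 and 51.9 CPM to 23.3 and 23.5 CPM (log2 fold change -1.15), and UXS1, which makes the xylose donor, had -0.73. PAPSS2, which makes the sulfate donor, rose with 1.13, and the median of the donor list was -0.42.

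Of 15 genes of chondroitin and dermatan sulfate synthesis, 8 were higher and 2 were lower, with a median of 0.69. The higher genes numbered 5 when either library of pig 88R was left out and 11 with the pig as a block. The sulfotransferase CHST7 was at 12 and 8.69 CPM in LGR5-high and 0.456 and 0.728 CPM in LGR5-negative, a log2 fold change of 4.12. CHST15, another chondroitin sulfotransferase, had 2.93. CSGALNACT1, which starts and extends chondroitin chains, rose with 3.43, while its paralog CSGALNACT2 fell with -1.23, from 103 and 101 CPM to 44.2 and 42.6 CPM. CHST3, the main chondroitin 6-O-sulfotransferase, fell from 56.5 and 62.9 CPM to 18.9 and 21.5 CPM, a log2 fold change of -1.56. In both pigs CHST7 and CSGALNACT1 were higher while their paralogs CHST3 and CSGALNACT2 were lower.

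Heparan sulfate synthesis showed the same kind of split without a shift of the list as a whole. Of 21 tested genes 8 were higher, 4 were lower and 9 were not called, with a median of 0.00. Without LGR5-high 88R 4 were higher and 2 lower, and without LGR5-negative 88R 6 were higher and 2 lower. The 3-O-sulfotransferases, which make rare modifications that create protein binding sites, lay at both ends. HS3ST4 had 30 and 60 counts in LGR5-high and 0 in LGR5-negative, at least 13.1-fold higher against the floor of 3 counts per library. HS3ST5 had 106 and 99 counts against 1 and 3, a ratio of 44.6 with a 95% counting interval of 17.2 to 165.0. In contrast HS3ST3B1 fell from 83.9 and 65.9 CPM to 16.4 and 15.6 CPM, a log2 fold change of -2.22, and HS3ST6 from 16.6 and 16.3 CPM to 5.7 and 5.69 CPM, or -1.53. The 6-O-sulfotransferase HS6ST2 rose with 5.00, from 0.0702 and 0.232 CPM to 3.67 and 6.33 CPM. HS3ST4, HS3ST5 and HS6ST2 passed the low-count filter through their LGR5-high libraries alone, which tilts the count of higher genes upward.

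Keratan sulfate is the chain that fibromodulin and lumican can carry. Of 5 genes of its synthesis 3 were higher and 2 were not called, with a median of 1.81. CHST2, a 6-O-sulfotransferase of N-acetylglucosamine, had 3639 and 2316 counts in LGR5-high and 28 and 14 counts in LGR5-negative, that is 106 and 70.1 CPM against 0.983 and 0.463 CPM. Its log2 fold change of 6.93 (SE 0.363, edgeR adjusted p = 1.23e-04) was larger than that of any of the 10 core proteins. CHST1, the keratan sulfate galactose sulfotransferase, had 118 and 166 counts against 3 and 3, a ratio of 41.2 with a 95% counting interval of 18.7 to 113.0. B4GALT4, which adds galactose to sulfated chains, had 1.81. CHST1 passed the low-count filter through its LGR5-high libraries alone, so the count and the median of this list are tilted upward. CHST2 and CHST1 also act on other glycans than keratan sulfate.

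Core proteins are cut by proteases and their chains by glycosidases. Of 13 tested genes 5 were higher, 4 were lower and 4 were not called, with a median of 0.14, and without LGR5-high 88R 3 were higher. MMP2, gelatinase A, was at 387 and 313 CPM in LGR5-high and 5.47 and 7.02 CPM in LGR5-negative, a log2 fold change of 5.81 (SE 0.184, edgeR adjusted p = 4.58e-05). MMP2 too is a gene the study displayed for its change. BMP1, which cleaves the propeptide of biglycan among other substrates, rose with 2.43, from 9.09 and 16.4 CPM to 67.2 and 70.7 CPM. HPSE, the heparanase, rose with 1.84 at levels of at most 2.41 CPM. MMP9 and the aggrecanase ADAMTS4 fell with -2.61 and -1.41, MMP9 from levels below 1 CPM in every library. MMP9 passed the low-count filter through its LGR5-negative libraries alone, which tilts the count of lower genes upward.

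Of 7 intracellular partners of syndecans 2 were higher, 1 was lower and 4 were not called, with a median of 0.16. TIAM1, a RAC1 exchange factor, had a log2 fold change of 0.63, PRKCA, the kinase that syndecan-4 recruits, had 0.42, and EZR (ezrin) had -0.51. The 11 lysosomal genes of chain degradation were centred on a median of 0.04, with 3 higher, 1 lower and 7 not called. ARSB, the sulfatase for dermatan and chondroitin sulfate, was at 12.5 and 11.2 CPM in LGR5-high and 2.84 and 2.78 CPM in LGR5-negative, a log2 fold change of 2.07. IDUA, the iduronidase, had 0.70 and GLB1, a beta-galactosidase, had -0.47.

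Of the 47 called genes chosen from these lists by the naming rule, 13 lost the call when at least 1 library was left out: PODNL1, OGN, GPC3, SPOCK2, B3GALT6, PAPSS2, UXS1, HPSE, MMP9, ADAMTS4, PRKCA, EZR and GLB1. GPC5 was not tested without LGR5-high 88R, so it is not counted among them.

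**Figure D4:**
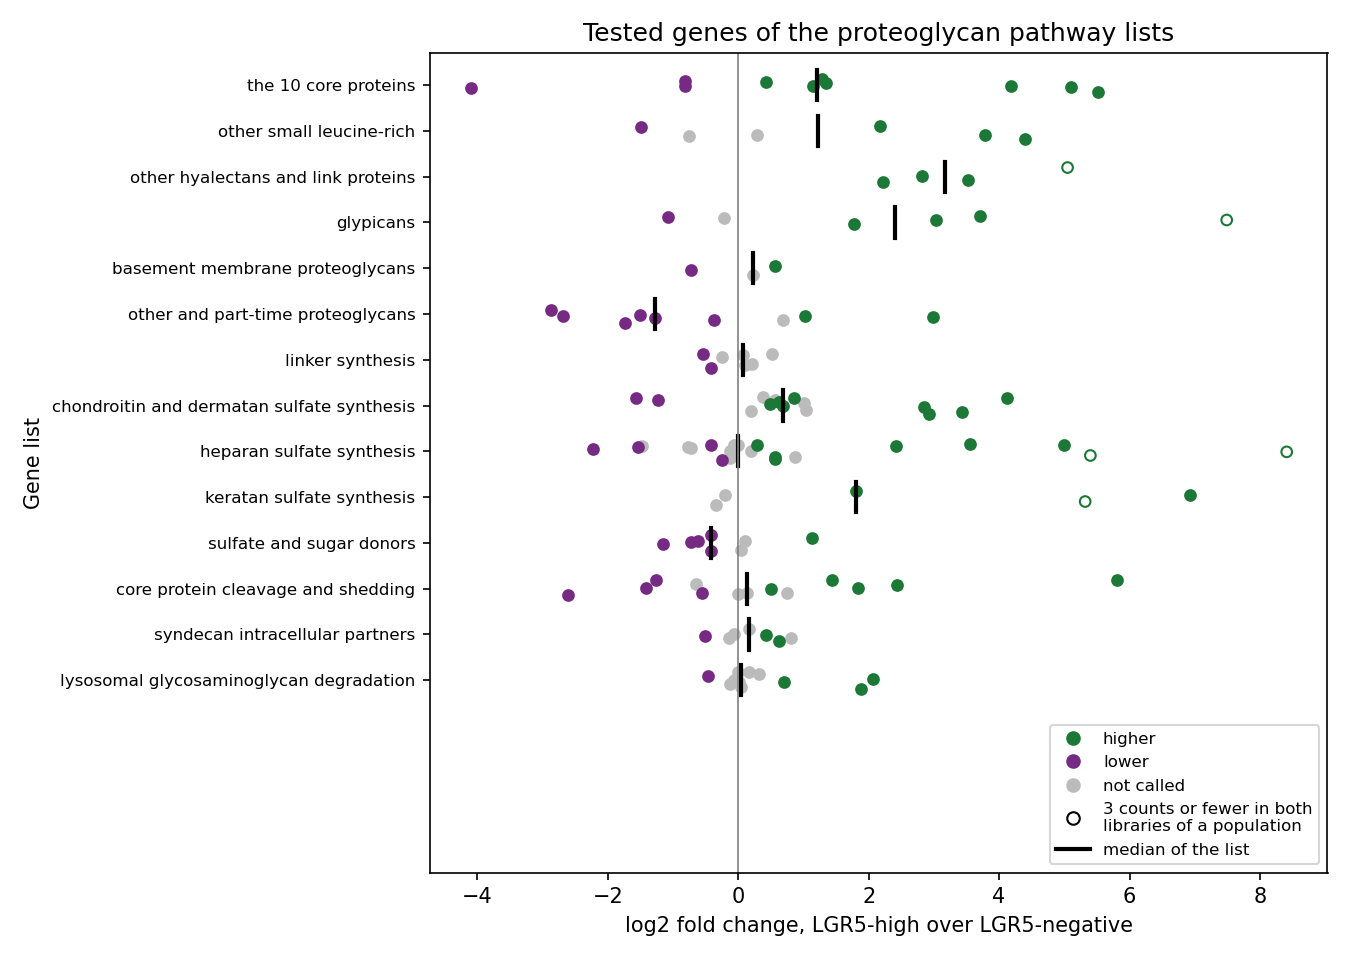
Log2 fold change (LGR5-high over LGR5-negative) of each tested gene in the 10 core proteins and 13 pathway lists, coloured by edgeR call, with the median of each list as a bar. Open circles are genes with 3 counts or fewer in both libraries of a population, whose fitted value depends on the prior count. Medians run from -1.27 for the other and part-time proteoglycans to 3.17 for the other hyalectans and link proteins.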

How the data were processed

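RNA from sorted epidermal cells of 2 pigs was sequenced as poly(A)-selected libraries. The authors deposited raw read counts per gene symbol, without normalization, which the submitters' processing notes tie to Trimmomatic 0.36, STAR 2.5.2b and featureCounts of Subread 1.5.2. The genome build, annotation and strand setting are not given in the sources used here, so reads of overlapping genes could not be checked. Between 0.36% and 0.626% of counts belonged to an entry without a name and were left out. All 29837 gene names matched RefSeq Sscrofa11.1, which was used for names and neighbours alone.

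Genes were kept by edgeR's filterByExpr (version 4.0.16, R 4.3.3, limma 3.58.1), scaled by TMM and tested with the quasi-likelihood test, with population as the only term, and p-values were Benjamini-Hochberg adjusted over 15980 genes. Fold changes within a pig used a prior count of 2. The libraries of the same number come from the same pig, and their deviations from the population means correlated at 0.37. The pig as a replicate block was therefore run as the paired fit. DESeq2 1.42.0, limma-voom, other scalings and filters, the Student's t-test that the study's methods name, run here on log2(CPM + 1), a scale chosen for this work, and leaving out each library were alternatives. P-values measure the spread between 2 pigs per population.

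The 10 members, the 13 pathway lists and the 10 marker lists were chosen with earlier results of these data known. Named were all members, the 3 called genes with the largest rise and the 2 with the largest fall of each pathway list, whole lists of 3 genes, LGR5, and marker genes whose level bears on a member. A gene that met this rule is not reported here. HAPLN4, GPC1 and KERA were named after their values were seen. Summed CPM were compared by an exact permutation test. The scripts were tested on simulated data. No lengths of transcripts or proteins were used, so ratios and shares of counts between genes are not those of molecules.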

Additional observations from a re-analysis of the deposited data

Results flagged for a closer look

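The median log2 fold change of the heparan sulfate synthesis genes had opposite signs in the pigs, 0.06 in pig 88R and -0.01 in pig 95R. Both values are close to 0 and the difference between the pigs was not tested. With 2 libraries in each population, libraries were not tested for standing apart from their group.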

How the results depend on the processing

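No member changed direction under any of the 14 alternatives, and 130 of 139 member values kept their side of the threshold. Under a minimum of 10 counts per library LUM was not tested. The 9 lost calls were DCN (-0.83, adjusted p = 0.144), LUM (-1.11, 0.106), VCAN (0.91, 0.211), SDC1 (0.43, 0.0786) and SDC4 (-0.81, 0.0896) by the Student's t-test, VCAN without LGR5-high or LGR5-negative 88R, and SDC1 when either LGR5-high library was left out. The t-test called 5 members higher and 0 lower, with 2 lower (LUM and SDC4) at an unadjusted p under 0.05, and edgeR, DESeq2 and limma-voom each called 3 lower. Without LGR5-high 88R, LUM rests on a library with no count and is at least 14.7-fold lower. With the replicate block 7 members were higher and 3 lower, and no call of a member or named pathway gene changed except that of AGRN, while the markers KRT15, PECAM1, DCT and MITF gained a call. Over all genes, 3632 were higher and 3508 lower, 4562 and 4342 with the replicate block, 5473 and 2326 with library size only, 544 and 502 by the t-test, and 2279 to 3169 and 2139 to 3004 with 1 library left out. Library size only moved the median of all genes from 0.02 to 0.24 and upper quartile scaling moved it to 0.11, and members kept their directions under both. The cause of these shifts was not tested.

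Of 47 called pathway genes, none changed sign and 37 lost the call by the t-test. Calls were lost without LGR5-high 88R for OGN, GPC3, SPOCK2, B3GALT6, PAPSS2, UXS1, HPSE, ADAMTS4, PRKCA and GLB1, without LGR5-negative 88R for OGN, B3GALT6, PAPSS2, MMP9, PRKCA, EZR and GLB1, without LGR5-high 95R for PODNL1, OGN, SPOCK2, B3GALT6, UXS1, MMP9, EZR and GLB1, and without LGR5-negative 95R for PODNL1, SPOCK2, B3GALT6 and PRKCA. B3GALT6, UXS1, EZR and GLB1 were lost with library size only, MMP9 by DESeq2, and OGN, B3GALT6, HS3ST4 and MMP9 by DESeq2 with the block. Under a minimum of 10 counts in every library, 38 of the 47 had a value. ACAN, HAPLN1, GPC5, CSGALNACT1, HS3ST4, HS3ST5, HS6ST2, CHST1 and MMP9 were not tested there. GPC5 was also not tested without LGR5-high 88R. The median of the other small leucine-rich proteins turned to -0.01 without LGR5-high 95R, where the rerun filter could admit other genes of the list. The median of heparan sulfate synthesis, 0.00, ranged from -0.09 to 0.23. Comparing the syndecans per length was planned and not run, since no lengths were at hand. With 2 libraries per population, LUM, with 5 and 0 counts in LGR5-high, was the member closest to the limit that depth sets.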
